A study of Mus musculus with 17 samples.

Results

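The genes described here are 27 genes of DNA replication and 27 genes of mitosis, 54 of the 28090 gene names read on the arrays. The rule that chose them uses name and function and no measured value, though earlier results of these data were known when the lists were drawn up. A member was a gene name of the scanner files that stood on either list, and where several probes carried the name the one with the highest average level over the arrays was used. All 54 were found, with 81 probes between them, and replication and mitosis genes were kept apart throughout.

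The arrays measured mRNA in 6 hematopoietic stem and progenitor (HSPC) populations of mouse bone marrow, on 17 single-color Agilent arrays. These were LT-HSC and ST-HSC, the long-term and short-term repopulating stem cells, MPP, the multipotent progenitors, and CMP, GMP and MEP, the common myeloid, granulocyte-macrophage and megakaryocyte-erythroid progenitors. LT-HSC had 2 arrays and each other population had 3. All cells came from untreated young adult female C57Bl/6 mice, several of them pooled in each replicate. Lineage-depleted, c-kit-enriched marrow was sorted by flow cytometry on Sca-1, Flt3, CD34 and the Fc gamma receptor, and LT-HSC, ST-HSC and MPP, called HSC subsets here, were sorted apart from CMP, GMP and MEP, called myeloid populations. A population is therefore a surface phenotype from pooled mice, and DNA content was not measured. Every population had 1 array without a replicate number, and the label of the other LT-HSC array joins replicates 2 and 3 in 1 pool.

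Replication genes act at the G1/S boundary and in S phase. Cdc6 and Cdt1 load the Mcm2 to Mcm7 helicase on origins, the E cyclins drive entry into S phase, and a primase, polymerases, the Pcna clamp and Okazaki fragment enzymes copy the DNA. Many of the mitosis genes are made mainly in G2 and M, among them B cyclins, Polo and Aurora kinases, spindle checkpoint, motor and kinetochore genes. E2F factors are known to drive many genes of the first kind. MuvB complexes with B-Myb (Mybl2) and Foxm1 are known to drive many of the second, through a cell cycle homology region (CHR) that often lies near CCAAT boxes. Adult LT-HSC are known to be mostly quiescent, and progenitors to divide more often. In sorted bulk RNA, fewer dividing cells and less RNA per dividing cell cannot be told apart.

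Levels are log2 intensities after quantile normalization over the 17 arrays. The arrays were scanned on 4 days. Day 1 held replicates 1 and 2 of CMP, GMP and MEP, day 2 the unnumbered arrays of MPP, CMP and GMP, day 3 those of ST-HSC and MEP, and day 4 both LT-HSC arrays with replicates 2 and 3 of ST-HSC and MPP. The unnumbered array of LT-HSC was the dimmest, its 75th percentile of intensity being 53.12 against 243.3 to 533.8 on the other 16, and 41.4% of its spots were well above background against 48.18% to 70.15%. HSC markers were lowest in MEP, where no array read Meis1 well above background, and the GMP and MEP marker lists were each highest in their own population. Of the 54 genes, 51 were well above background on all arrays, and Cdc25c, Ttk and Ndc80 were not on 1 LT-HSC array. No member was saturated.

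Promoters of the members were read to show how both lists differ in a feature that was not used to choose them. RefSeq promoter sequences (GRCm38.p6, from 250 bases before to 50 after the start) were matched for 42 of the 54 genes, in 47 windows. Aurkb, Ccna2, Ccne2, Cdc25c, Foxm1, Gins1, Gins2, Kif20a, Mcm4, Pole, Prim2 and Tpx2 were not matched. An E2F-type motif (the letters TTCCCGC, the letters TTGGCGC or the letters TTCGCGC, on either strand) lay in 60.0% of 25 replication windows, 13.6% of 22 mitosis windows and 8.07% of all 32851 windows. A CHR-type motif (TTTGAA or TTCGAA, on either strand) lay in 16.0% of replication windows, 72.7% of mitosis windows and 19.2% of all. CCAAT, on either strand, lay in 52.0%, 77.3% and 37.4%. The reverse of TTGGCGC and the forward TTCGCGC can share bases, as they do in Mcm5. A match is a string of letters and not a measured binding site.

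The stretches below show the E2F-type letters in capitals, on the gene's strand, in 4 replication genes whose levels are set out later. Cdc6, Mcm5 and Fen1 were lower in the HSC subsets than in the myeloid populations, and Prim1, which also holds such letters, did not pass that test. Where the motif lies on the other strand its complement is seen. They lie at chr11:98907993-98908039 (+) for Cdc6, chr8:75109325-75109386 (+) for Mcm5, chr19:10203929-10203975 (-) for Fen1 and chr10:128015180-128015214 (+) for Prim1, all GRCm38.p6.
Cdc6: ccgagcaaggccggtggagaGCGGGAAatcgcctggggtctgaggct
Mcm5: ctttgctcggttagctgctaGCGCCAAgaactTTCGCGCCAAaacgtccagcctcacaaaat
Fen1: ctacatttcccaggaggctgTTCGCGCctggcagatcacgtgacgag
Prim1: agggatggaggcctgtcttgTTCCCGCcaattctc

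The mitosis stretches carry CHR-type letters in capitals. Cdk1, Kif11 and Top2a were lower in the HSC subsets and Ccnb2 and Prc1 did not pass the test, so that genes with these letters were found on both sides of it. Cdk1, written Cdc2a on the array, lies at chr10:69352913-69353003 (-), Kif11 at chr19:37376343-37376381 (+), Top2a at chr11:99024284-99024388 (-), Ccnb2 at chr9:70421696-70421741 (-) and Prc1 at chr7:80294426-80294471 (+).
Cdk1: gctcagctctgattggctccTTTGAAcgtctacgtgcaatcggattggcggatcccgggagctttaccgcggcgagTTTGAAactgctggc
Kif11: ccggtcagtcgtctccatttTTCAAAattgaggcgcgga
Top2a: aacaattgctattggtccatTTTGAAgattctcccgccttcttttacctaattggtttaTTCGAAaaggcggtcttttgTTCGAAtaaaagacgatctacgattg
Ccnb2: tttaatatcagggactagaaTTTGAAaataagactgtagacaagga
Prc1: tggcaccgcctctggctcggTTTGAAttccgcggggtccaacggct

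Ccnb1, which had the largest F value of the mitosis genes, is shown with its CCAAT boxes in capitals, 2 of which fall in the stretch at chr13:100786529-100786605 (-). Its window held no CHR-type letters. It held the reverse of TTGGCGC, which shares bases with the first box, so that Ccnb1 is among several exceptions to the split between both lists. E2F-type letters lay in 3 mitosis genes, Ccnb1, Cdk1 and Mki67. CHR-type letters lay in 4 replication genes, Fen1, Mcm2, Mcm7 and Rfc3.
Ccnb1: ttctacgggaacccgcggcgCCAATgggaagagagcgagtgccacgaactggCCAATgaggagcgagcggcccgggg

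Across the 6 populations both sets of genes were low in the HSC subsets, intermediate in CMP and GMP and highest in MEP. The mean of the replication genes, each centred on its mean over the populations, was highest in MEP, at 0.62 ± 0.04 on the log2 scale (SD, n = 3), and stood at 0.09 ± 0.07 in GMP and 0.08 ± 0.02 in CMP. It was -0.17 ± 0.07 in ST-HSC, -0.32 ± 0.06 in MPP and, from 2 arrays, -0.32 ± 0.05 in LT-HSC. For mitosis genes the same mean was 0.58 ± 0.08 in MEP, 0.31 ± 0.13 in GMP and 0.12 ± 0.12 in CMP, then -0.21 ± 0.05 in ST-HSC, -0.30 ± 0.12 in MPP and -0.50 ± 0.03 in LT-HSC. The 3 MEP arrays lay above all others for both sets. CMP and GMP arrays interleaved for the replication genes, as did LT-HSC and MPP arrays. The LT-HSC arrays, at -0.52 and -0.47, were the lowest for mitosis genes, with the nearest MPP array at -0.41. These means describe the sets and were not tested.

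**Figure D1:**
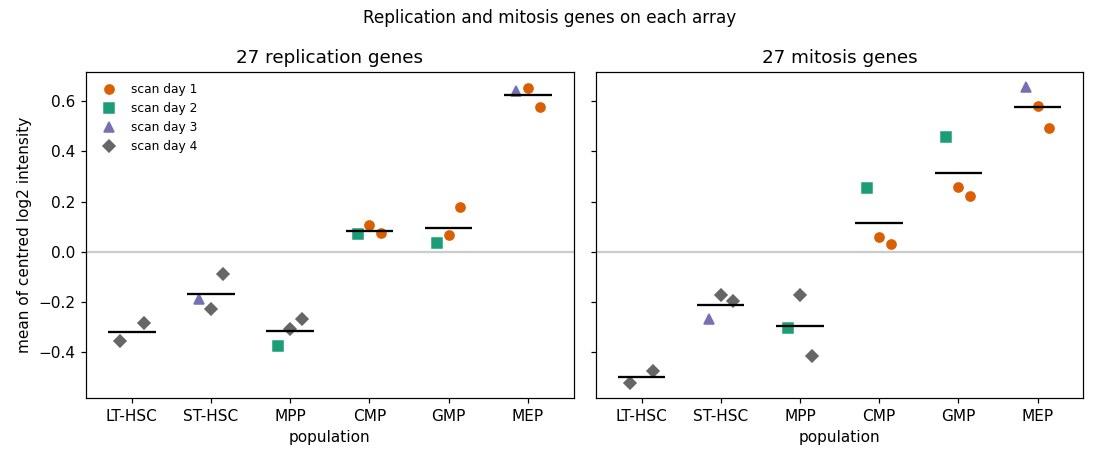
Mean centred log2 intensity of the 27 replication genes (left) and the 27 mitosis genes (right) on each array (points, shaped by scan day) with the mean of each population (line). The MEP arrays lie between 0.58 and 0.65 for replication genes and between 0.49 and 0.66 for mitosis genes, above every other array, and no array of the HSC subsets lies above 0.

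Of the replication genes, 18 of 27 differed among populations by the F-test of limma (Benjamini-Hochberg adjusted p under 0.05), as did 16 of 27 mitosis genes, against 40.2% of all gene names. MEP had the highest mean for 21 of 27 genes in each set, against 27% of all gene names, and LT-HSC the lowest for 14 and 16, against 21.5%. All 3 MEP arrays exceeded the other 14 for 7 replication genes (Mcm10, Cdc6, Cdt1, Rfc4, Rrm1, Ccne1 and Ccne2) and 9 mitosis genes (Ccna2, Ccnb1, Ccnb2, Plk1, Cdc20, Mad2l1, Kif11, Kif20a and Cenpa), where 7.59% of all gene names had this order. Both LT-HSC arrays lay below the other 15 for 4 replication genes (Mcm3, Gins1, Rfc3 and Prim2) and 6 mitosis genes (Cdc25c, Aurkb, Kif11, Tpx2, Cenpf and Ndc80), against 2.99% of all. Of these 10, Cdc25c and Ndc80 were not well above background on 1 of the 2 arrays.

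**Figure D2:**
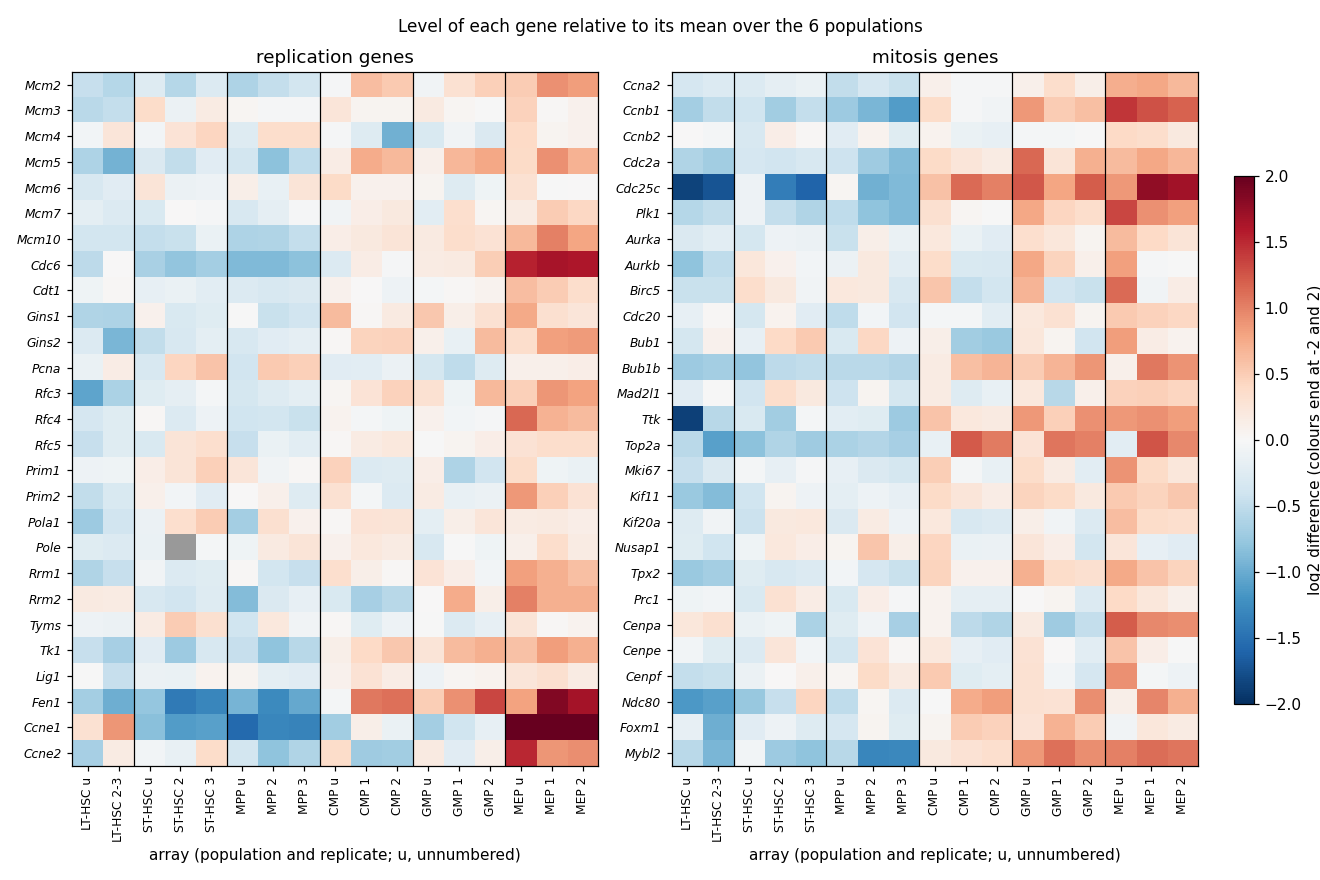
Log2 difference of each gene on each array from its mean over the 6 populations, replication genes left and mitosis genes right, with populations divided by lines and the missing Pole value of ST-HSC replicate 2 in grey. Most genes are above their mean in MEP (right-hand columns), and Ccne1 is also raised in LT-HSC, at 12.25 and 12.83 against 10.41 to 10.65 in MPP.

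Cdc6 and Mcm10 had the largest F values of the licensing and firing genes. Below, values follow the order unnumbered array, then numbered arrays, within each population. Cdc6, which loads the helicase (probe at chr11:98782573-98782632 of mm9, + strand), read 8.90 and 9.42 in LT-HSC, 8.76, 8.63 and 8.73 in ST-HSC, 8.53, 8.53 and 8.60 in MPP, 9.13, 9.56 and 9.38 in CMP, 9.58, 9.59 and 9.91 in GMP and 10.95, 11.07 and 11.03 in MEP. Every MEP array was more than 1 log2 unit above every other array, and the MPP arrays were the lowest. Its F value was 62.4, beside 29.65 for Mcm10, which acts as helicases are activated. Mcm10 read 12.25 and 12.26 in LT-HSC, 12.14, 12.17 and 12.48 in ST-HSC, 11.996, 12.01 and 12.15 in MPP, 12.75, 12.82 and 12.88 in CMP, 12.80, 12.97 and 12.91 in GMP and 13.27, 13.63 and 13.40 in MEP. For both genes the lowest mean was that of MPP and the highest that of MEP. In Mcm10 no myeloid array lay below an array of the HSC subsets. In Cdc6 the CMP arrays at 9.13 and 9.38 lay below the LT-HSC array at 9.42. Cdt1, Gins1 and Gins2, which load the helicase and complete it, also passed the F-test.

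The 6 subunits of the Mcm helicase did not share 1 pattern. Mcm5 (chr8:77651350-77651410, + strand) read 13.12 and 12.78 in LT-HSC, 13.44, 13.23 and 13.504 in ST-HSC, 13.36, 12.90 and 13.21 in MPP, 13.87, 14.47 and 14.37 in CMP, 13.83, 14.39 and 14.50 in GMP and 14.10, 14.64 and 14.41 in MEP. The 8 arrays of the HSC subsets were all below the 9 myeloid arrays, and within each myeloid population the unnumbered array was the lowest. Mcm6, which has among the smallest F values (1.68, adjusted p = 0.309 by limma), read 15.89 and 15.98 in LT-HSC, 16.46, 16.09 and 16.11 in ST-HSC, 16.33, 16.06 and 16.46 in MPP, 16.59, 16.30 and 16.30 in CMP, 16.27, 15.96 and 16.13 in GMP and 16.52, 16.21 and 16.23 in MEP. The other populations overlapped, and the LT-HSC arrays were among the 3 lowest. Mcm2 and Mcm3 passed the F-test, and Mcm4 and Mcm7 did not.

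Pcna and Prim1 lacked the common order. Pcna (chr2:132075420-132075557, - strand), the sliding clamp of the polymerases, read 14.49 and 14.77 in LT-HSC, 14.31, 15.05 and 15.20 in ST-HSC, 14.24, 15.14 and 15.09 in MPP, 14.39, 14.42 and 14.50 in CMP, 14.27, 14.12 and 14.37 in GMP and 14.72, 14.73 and 14.76 in MEP. Its highest arrays were replicates 2 and 3 of ST-HSC and MPP, all from scan day 4, and its unnumbered arrays of the same populations were near the myeloid levels. Prim1, a primase subunit, read 12.89 and 12.89 in LT-HSC, 13.12, 13.25 and 13.46 in ST-HSC, 13.22, 12.91 and 13.001 in MPP, 13.44, 12.71 and 12.73 in CMP, 13.11, 12.36 and 12.60 in GMP and 13.34, 12.89 and 12.85 in MEP. The lowest values were those of GMP replicates 1 and 2, and its F value of 1.33 was the smallest of the replication genes. Rfc3, Rfc4 and Rfc5, which load the clamp, passed the F-test, and Pola1 and Pole did not. Prim2, the other primase subunit, was lowest in LT-HSC and highest in MEP and passed it too (adjusted p = 0.035 by limma).

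Enzymes of nucleotide supply and Okazaki fragments were mixed. Rrm2, the small subunit of ribonucleotide reductase, read 10.76 and 10.73 in LT-HSC, 10.26, 10.18 and 10.31 in ST-HSC, 9.70, 10.28 and 10.40 in MPP, 10.26, 9.90 and 10.02 in CMP, 10.57, 11.31 and 10.68 in GMP and 11.57, 11.28 and 11.29 in MEP. MEP and GMP arrays were above all CMP arrays, and both LT-HSC arrays were above 2 of the 3 GMP arrays. Tk1, thymidine kinase, read 11.77 and 11.58 in LT-HSC, 12.004, 11.51 and 11.92 in ST-HSC, 11.77, 11.43 and 11.69 in MPP, 12.36, 12.63 and 12.78 in CMP, 12.49, 12.87 and 12.95 in GMP and 12.82, 13.07 and 12.94 in MEP. All arrays of the HSC subsets were below all myeloid arrays. Fen1 (chr19:10274175-10274234, - strand), the flap nuclease that trims Okazaki fragments, read 10.30 and 9.996 in LT-HSC, 10.205, 9.56 and 9.67 in ST-HSC, 10.05, 9.70 and 9.95 in MPP, 10.94, 12.03 and 12.08 in CMP, 11.47, 11.89 and 12.30 in GMP and 11.78, 12.83 and 12.64 in MEP. It too separated both sides without overlap, and the unnumbered CMP, GMP and MEP arrays were each the lowest of their population.

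Ccne1, an E cyclin, had the widest range of population means of the 54 genes, 3.86 on the log2 scale. Its F value, at the probe at chr7:38882937-38882960 (- strand), was also the largest, 80.07 (adjusted p = 2.7e-07 by limma). It read 12.25 and 12.83 in LT-HSC, 11.11, 10.84 and 10.87 in ST-HSC, 10.41, 10.65 and 10.62 in MPP, 11.26, 12.07 and 11.83 in CMP, 11.27, 11.56 and 11.79 in GMP and 14.42, 14.52 and 14.33 in MEP. MEP stood highest, LT-HSC came next, and no LT-HSC array overlapped any array of the other 4 populations. Ccne2, the other E cyclin, read 6.399 and 7.23 in LT-HSC, 7.02, 6.92 and 7.44 in ST-HSC, 6.69, 6.25 and 6.46 in MPP, 7.43, 6.35 and 6.37 in CMP, 7.24, 6.84 and 7.18 in GMP and 8.56, 7.95 and 7.997 in MEP. Only MEP stood clear of the others.

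Among the mitosis genes, Ccnb1, Ccna2 and Plk1 had lower means in the HSC subsets than in CMP and GMP and the highest in MEP, though their lowest mean was that of MPP and not, as for the set, of LT-HSC. Ccnb1 (chr13:101549634-101549693, - strand), cyclin B1, had the largest F value of the mitosis genes, 51.19, and read 9.34 and 9.52 in LT-HSC, 9.61, 9.32 and 9.53 in ST-HSC, 9.29, 9.10 and 8.89 in MPP, 10.38, 9.99 and 9.94 in CMP, 10.88, 10.52 and 10.62 in GMP and 11.45, 11.30 and 11.20 in MEP. The levels stepped up from MPP to CMP, GMP and MEP without overlap between any of these, while LT-HSC and ST-HSC overlapped. Ccna2, cyclin A2, read 11.64 and 11.70 in LT-HSC, 11.70, 11.79 and 11.84 in ST-HSC, 11.48, 11.64 and 11.52 in MPP, 12.08, 11.95 and 11.95 in CMP, 12.08, 12.33 and 12.08 in GMP and 12.70, 12.75 and 12.61 in MEP. MEP stood clear above CMP and GMP, which overlapped. Plk1, the Polo kinase that drives mitotic entry, read 11.65 and 11.72 in LT-HSC, 12.11, 11.74 and 11.61 in ST-HSC, 11.70, 11.42 and 11.34 in MPP, 12.54, 12.26 and 12.20 in CMP, 12.99, 12.65 and 12.57 in GMP and 13.55, 13.12 and 13.04 in MEP. The MEP arrays were the highest and the HSC subsets overlapped among themselves. Ccnb2, cyclin B2, was highest in MEP, but its CMP mean lay below those of LT-HSC and ST-HSC, and it did not pass the F-test (adjusted p = 0.169 by limma).

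Cdc25c, the phosphatase that activates Cdk1, read 4.83 and 4.95 in LT-HSC, 6.58, 5.30 and 5.07 in ST-HSC, 6.72, 5.72 and 5.80 in MPP, 7.26, 7.82 and 7.69 in CMP, 7.93, 7.47 and 7.88 in GMP and 7.55, 8.46 and 8.35 in MEP. Its LT-HSC arrays were the lowest of all, 1 of them not well above background, and no array of the HSC subsets reached a myeloid array. Aurkb, the kinase of the chromosomal passenger complex, read 9.20 and 9.48 in LT-HSC, 10.23, 10.08 and 9.95 in ST-HSC, 9.87, 10.198 and 9.78 in MPP, 10.37, 9.68 and 9.67 in CMP, 10.77, 10.44 and 10.10 in GMP and 10.82, 9.97 and 9.98 in MEP. The unnumbered arrays of CMP, GMP and MEP were each higher than the numbered ones of their population. The numbered arrays of GMP and MEP overlapped ST-HSC and MPP, and those of CMP lay below both. Birc5 (survivin), a partner of Aurkb, read 13.68 and 13.68 in LT-HSC, 14.47, 14.31 and 14.05 in ST-HSC, 14.33, 14.31 and 13.80 in MPP, 14.67, 13.64 and 13.74 in CMP, 14.80, 13.73 and 13.67 in GMP and 15.25, 14.05 and 14.27 in MEP. Its F value was 0.93 (adjusted p = 0.591 by limma), and its 3 unnumbered myeloid arrays stood above all other arrays.

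Top2a, the topoisomerase that untangles chromosomes, read 9.48 and 8.92 in LT-HSC, 9.19, 9.41 and 9.30 in ST-HSC, 9.38, 9.42 and 9.35 in MPP, 9.86, 11.24 and 11.05 in CMP, 10.29, 11.09 and 11.01 in GMP and 9.81, 11.28 and 10.97 in MEP. The 3 unnumbered myeloid arrays were below all numbered ones, though above the 8 arrays of the HSC subsets. Mki67, the proliferation antigen Ki-67, read 13.61 and 13.78 in LT-HSC, 14.03, 13.91 and 14.04 in ST-HSC, 13.91, 13.78 and 13.71 in MPP, 14.56, 14.02 and 13.93 in CMP, 14.44, 14.22 and 13.85 in GMP and 14.97, 14.45 and 14.29 in MEP. Only MEP had all arrays above all of the HSC subsets. Kif11, the kinesin that separates spindle poles (chr19:37495755-37495814, + strand), read 7.37 and 7.25 in LT-HSC, 7.72, 8.16 and 8.01 in ST-HSC, 7.91, 8.02 and 7.95 in MPP, 8.49, 8.35 and 8.26 in CMP, 8.55, 8.50 and 8.30 in GMP and 8.64, 8.56 and 8.65 in MEP. It was lowest in LT-HSC, and the CMP, GMP and MEP arrays were above the 8 arrays of the HSC subsets.

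At the centromere, Cenpa, the centromeric histone, read 10.70 and 10.79 in LT-HSC, 10.34, 10.38 and 9.85 in ST-HSC, 10.23, 10.40 and 9.82 in MPP, 10.54, 9.95 and 9.87 in CMP, 10.66, 9.76 and 10.01 in GMP and 11.69, 11.43 and 11.41 in MEP. MEP was highest, and the LT-HSC arrays were above every array of the other 4 populations. Cenpe, a kinetochore motor, read 12.98 and 12.80 in LT-HSC, 12.78, 13.29 and 12.99 in ST-HSC, 12.68, 13.32 and 13.07 in MPP, 13.26, 12.88 and 12.82 in CMP, 13.33, 13.05 and 12.83 in GMP and 13.61, 13.17 and 13.03 in MEP. The populations overlapped, and its F value of 0.58 was the smallest of the 54. The other probes of Cenpe gave another picture, described further on.

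The factors that drive mitosis genes were not alike. Mybl2 (B-Myb) read 9.86 and 9.48 in LT-HSC, 10.35, 9.67 and 9.58 in ST-HSC, 9.84, 9.09 and 9.11 in MPP, 10.60, 10.69 and 10.73 in CMP, 11.27, 11.50 and 11.32 in GMP and 11.41, 11.51 and 11.47 in MEP. GMP and MEP were high, CMP was between, and the HSC subsets were low. Foxm1 read 9.44 and 8.62 in LT-HSC, 9.37, 9.501 and 9.34 in ST-HSC, 9.26, 9.66 and 9.36 in MPP, 9.66, 10.10 and 10.07 in CMP, 9.87, 10.30 and 10.12 in GMP and 9.53, 9.83 and 9.77 in MEP. It was highest in GMP, and the unnumbered MEP array was within the range of the HSC subsets.

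**Figure D3:**
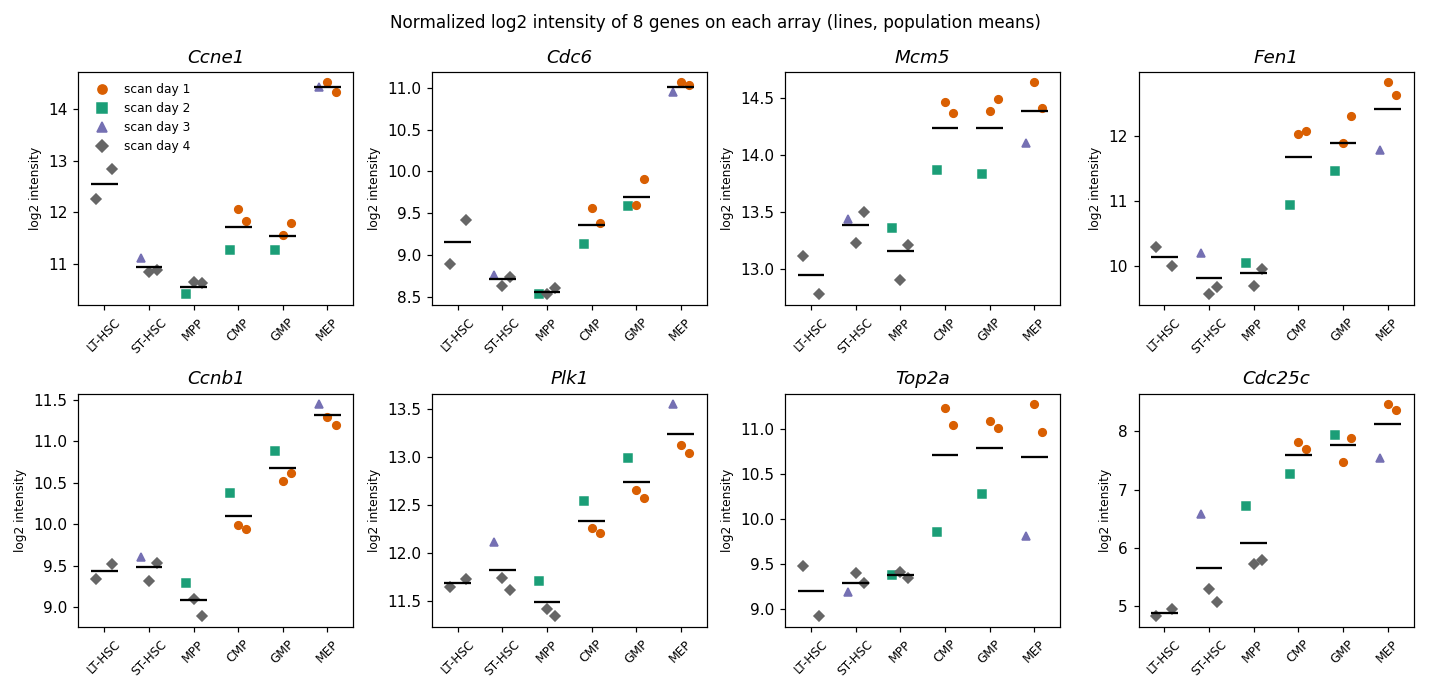
Normalized log2 intensity of Ccne1, Cdc6, Mcm5, Fen1, Ccnb1, Plk1, Top2a and Cdc25c on each array (points, shaped by scan day) with population means (lines), on axes that do not start at 0. Ccne1 stands at 14.33 to 14.52 in MEP, and in Top2a the unnumbered myeloid arrays, at 9.81 to 10.29, lie below the numbered ones at 10.97 to 11.28.

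The first comparison asked how the HSC subsets differ from the myeloid populations. Both sets of genes were lower in the HSC subsets. By limma with Benjamini-Hochberg adjustment over all gene names, 20 of 27 replication genes and 16 of 27 mitosis genes were lower and 0 were higher, against 19.1% of all gene names lower and 21.7% higher. The median difference was -0.39 for replication genes and -0.48 for mitosis genes, with 0.04 for all gene names. Of the genes called, 6 replication and 11 mitosis genes had no overlap between the 8 arrays of the HSC subsets and the 9 myeloid arrays, against 4.08% of all gene names that were called lower without overlap. Scaling to the 75th percentile put the median of all gene names at 0.37 and the medians of the members at -0.49 and -0.60, and the share of calls that were higher went from 53.2% to 69.9%. Markers of other cell types moved with this comparison. All 5 T cell markers, 3 of 5 B cell markers and 3 of 5 mature neutrophil markers were higher in the HSC subsets, and of 5 mature erythroid markers 2 were higher and 1 lower. The mean log2 level of the T cell list was 5.32 to 6.97 on the arrays of the HSC subsets and 3.33 to 5.37 on the myeloid arrays, where Cd2 was not well above background on any. It was 7.82 to 9.68 against 6.85 to 8.23 for the B cell list, 9.93 to 13.63 against 9.10 to 12.09 for the neutrophil list and 7.20 to 9.501 against 5.28 to 11.54 for the erythroid list. Their part in the differences of the members was not tested.

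Fen1 had the largest difference of the replication genes, -2.04 (SE 0.21, a 4.12-fold difference, limma adjusted p = 6.2e-06). Cdc6 at -1.22, Ccne1 at -1.21, Mcm5 at -1.12 (adjusted p = 2.44e-05) and Tk1 at -1.06 (adjusted p = 6.23e-06) followed. All 5 licensing and firing genes were lower, as were 4 of 6 helicase subunits, 3 of 4 clamp and clamp loader genes, 3 of 4 genes of nucleotide supply, both Okazaki fragment genes and both E cyclins. Only Prim2 was lower among the 4 primase and polymerase genes. Mcm4 at 0.31, Pcna at 0.29 (95% interval -0.03 to 0.62), Prim1 at 0.18 and Tyms at 0.09 had positive values that did not pass the test.

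Among the mitosis genes, Cdc25c differed by -2.28 (SE 0.23, 4.87-fold, limma adjusted p = 6.3e-06), though 1 LT-HSC array did not read it well above background. Mybl2 at -1.54 (adjusted p = 2.06e-06), Top2a at -1.44 (adjusted p = 0.000328), Ccnb1 at -1.36, Ttk at -1.30 and Bub1b at -1.24 followed, the last pair being kinases of the spindle checkpoint. Of 5 cyclin and Cdk1 genes, 4 were lower, as were both transcription factors and both chromosome genes, 3 of 5 checkpoint genes, 2 of 4 mitotic kinase genes, 2 of 5 spindle genes and 1 of 4 centromere genes. Aurkb, at -0.41, missed the threshold (adjusted p = 0.0562), and Nusap1, Prc1 and Bub1 had values between -0.05 and 0.08.

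**Figure D4:**
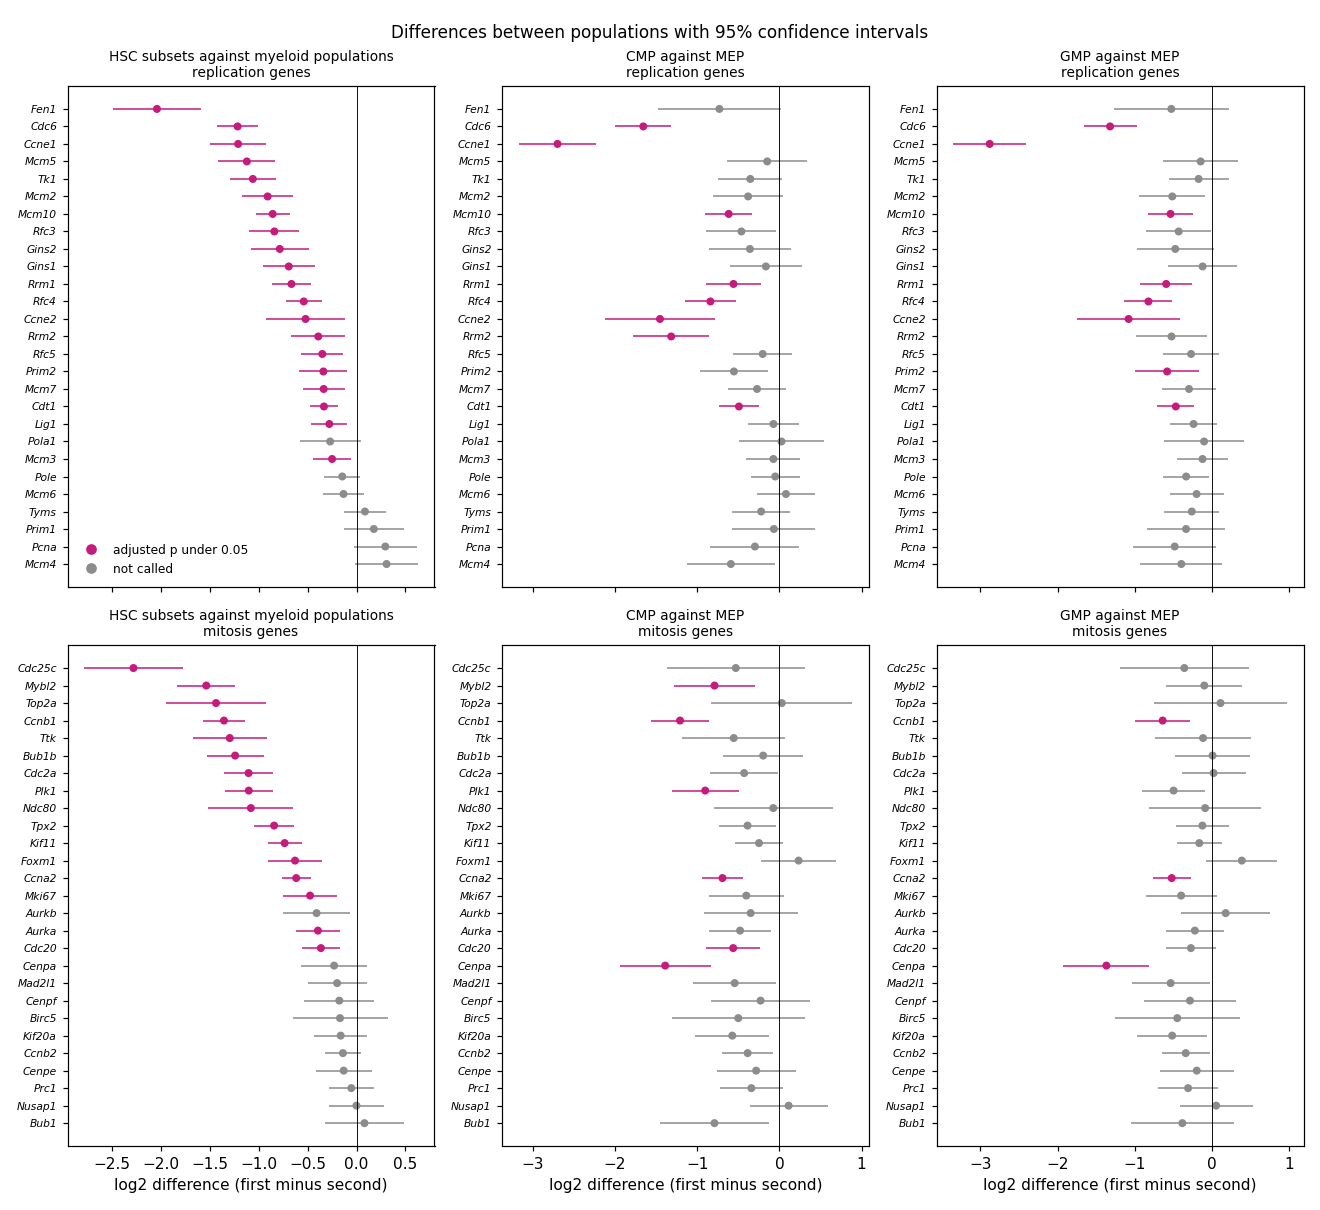
Log2 difference with its 95% confidence interval for each replication gene (top) and mitosis gene (bottom), for HSC subsets minus myeloid populations, CMP minus MEP and GMP minus MEP, with genes past the test in magenta and horizontal scales that differ between comparisons. Fen1 and Cdc25c have the most negative values in the first comparison, at -2.04 and -2.28, and Ccne1 in the others, at -2.70 and -2.88.

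The direction of the medians held within scan days, while the sizes of single genes changed. With scan day as a block, where the 2 sides meet only on days 2 and 3, 16 replication and 21 mitosis genes were lower, of which 15 and 14 were also called without it, against 7.07% of all gene names lower in that fit. The medians were -0.62 and -0.78. All 54 differences were then negative, from -1.35 to -0.13. The call was lost by Ccne2 at -0.83, Gins2 at -0.66, Mcm7 at -0.32, Mcm3 at -0.31 and Lig1 at -0.13, and by Ttk at -1.24 (limma adjusted p = 0.0501) and Foxm1 at -0.54. Pola1, Aurkb, Birc5, Bub1, Kif20a, Prc1, Cenpe and Cenpf gained it. Fen1 moved to -1.15, Cdc25c to -1.09, Top2a to -0.72, Mcm5 to -0.62, Mybl2 to -0.90 and Tk1 to -0.68, each still called, while Ccnb1 stayed at -1.35. Within day 2 (1 MPP array against 1 CMP and 1 GMP array) the medians were -0.47 and -0.61, with 0 of all gene names called. Within day 3 (1 ST-HSC and 1 MEP array, no test) they were -0.71 and -0.94. The sort was also separate for the 2 sides, and its part in the difference cannot be told apart from that of the populations.

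Arrays of 1 population from different scan days also differed in single genes. In CMP, GMP and MEP the unnumbered array, of day 2 or 3, was compared with the mean of replicates 1 and 2, of day 1. The gap, averaged over the 3 populations, was -1.12 for Top2a, -0.90 for Fen1, -0.61 for Ndc80, -0.54 for Bub1b and -0.53 for Mcm5. It was 1.06 for Birc5, 0.75 for Cenpf, 0.68 for Aurkb, 0.65 for Bub1, 0.63 for Ccne2 and 0.61 for Prim1. The sign was the same in all 3 populations for 21 replication and 22 mitosis genes. Replicate pools and scan days changed together here and cannot be told apart.

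**Figure D5:**
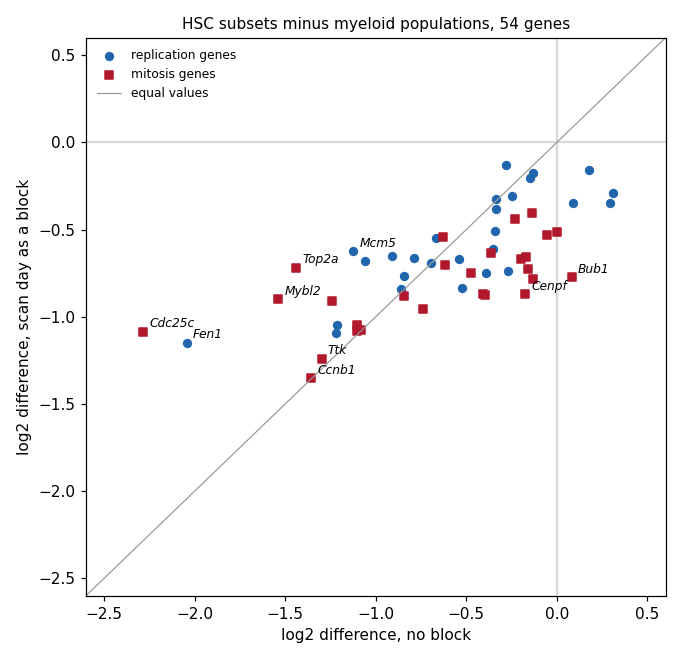
Difference between HSC subsets and myeloid populations for the 54 genes without (horizontal) and with scan day as a block (vertical), both on the log2 scale, with the line of equal values. All genes lie below 0 on the vertical axis, Fen1 and Cdc25c lie above the line, at -1.15 and -1.09, and Bub1 moves from 0.08 to -0.77.

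The next comparisons asked how MEP differs from the other myeloid populations. CMP had lower levels than MEP in 8 replication and 6 mitosis genes and higher levels in 0, all without overlap between arrays, against 7.73% of all gene names lower (7.66% lower without overlap) and 10.5% higher. GMP was lower than MEP in 8 replication and 3 mitosis genes and higher in 0, all without overlap, against 8.51% lower (8.44% without overlap) and 10.5% higher. The median differences of CMP from MEP were -0.36 and -0.43, with -0.10 for all gene names. Those of GMP were -0.43 and -0.27, with -0.07 for all. Scaling to the 75th percentile put all gene names at -0.51 and -0.44, and the members at -0.74 and -0.73 for CMP and at -0.63 and -0.47 for GMP, with 15 replication genes lower in CMP, against 8.83% of all gene names. Both comparisons use the same 3 MEP arrays. All 5 mature erythroid markers were lower in CMP and in GMP than in MEP. Their mean log2 level was 10.21 to 11.54 in MEP, 6.61 to 7.77 in CMP and 5.28 to 6.62 in GMP. Of 5 B cell markers, 1 was lower and 2 were higher in CMP, and 3 were lower and 1 higher in GMP. The T cell marker Lck was higher in CMP and lower in GMP, and 0 mature neutrophil markers were called. Their part in the differences of the members was not tested.

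Ccne1 was 6.5-fold lower in CMP than in MEP (-2.70, SE 0.22, limma adjusted p = 1.56e-06) and 7.36-fold lower in GMP (-2.88, adjusted p = 6.47e-07). Its second probe gave -2.82 and -2.87. Cdc6 was lower by -1.66 (adjusted p = 6.29e-06) in CMP and -1.32 (adjusted p = 3.57e-05) in GMP. Ccne2 differed by -1.45 (adjusted p = 0.00425) and -1.08 (adjusted p = 0.0248). In GMP the Ccne2 call was lost under 4 of 27 other settings, single scan days not counted, and its value ran from -1.19 to -0.73. Rfc4, Mcm10, Cdt1 and Rrm1 were lower in both, by -0.84 to -0.47, Rrm2 was called in CMP alone (-1.32) and Prim2 in GMP alone (-0.58). Whether CMP and GMP differ in Rrm2 is taken up below, and for Prim2 their difference was 0.03.

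Among mitosis genes, Cenpa differed by -1.39 in CMP (limma adjusted p = 0.00153) and -1.37 in GMP (adjusted p = 0.00152), though its second probe was not above background on any array. With the mean of all probes Cenpa was at -0.45 and -0.67 and lost both calls. Ccnb1 was lower by -1.21 in CMP (adjusted p = 0.000125) and -0.64 in GMP (adjusted p = 0.0132), and Ccna2 by -0.69 and -0.52 (adjusted p = 0.00478 in GMP). Plk1 differed by -0.90 (adjusted p = 0.00371) in CMP, where Mybl2 and Cdc20 were called too. With scan day as a block, 10 replication and 15 mitosis genes were lower in CMP, against 11.9% of all gene names, and 11 and 6 in GMP, against 12% of all. Within day 1 the medians were -0.30 and -0.46 for CMP and -0.38 and -0.23 for GMP. Without the unnumbered MEP array the count fell to 4 mitosis genes for CMP and 5 replication genes for GMP.

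CMP and GMP differed in 1 replication gene and 0 mitosis genes, against 2.23% of all gene names lower in CMP and 3.65% higher. Rrm2 was lower in CMP by -0.79 (SE 0.21, limma adjusted p = 0.0472). That call was lost under 17 of 27 other settings, single scan days not counted. In the fits without single arrays the value ran from -0.93 to -0.57. The median differences were 0.03 and -0.15, with -0.04 for all gene names. Of 27 mitosis genes, 3 had an unadjusted p under 0.05, against 13.5% of all gene names, and 3 had a positive value, while Mybl2 was at -0.69 and Ccnb1 at -0.57. The replication median was -0.11 under scaling to the 75th percentile and -0.02 without GMP replicate 1. With scan day as a block Ccnb1, Plk1, Aurkb and Mybl2 were lower in CMP, as were 4.08% of all gene names.

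Within the HSC subsets the question was whether stem cells differ from MPP. LT-HSC had higher Ccne1 and lower Kif11 than MPP, and no other member passed the test. This is 1 of 27 replication genes higher, against 5.27% of all gene names, and 1 of 27 mitosis genes lower, against 3.17%. The median differences were -0.08 and -0.13, with -0.02 for all gene names. Leaving out single arrays moved the replication median between -0.12 and -0.04, nearest 0 without the LT-HSC array of replicates 2 and 3 and at -0.05 without MPP replicate 2 or 3. It moved the mitosis median between -0.19 and -0.0036, nearest 0 without MPP replicate 2 and at -0.06 without the unnumbered LT-HSC array. The replication median turned to 0.014 with the replicate block, and the mitosis median to 0.016 with the random block for slide. At an unadjusted p under 0.05 there were 6 of 27 genes in each set, against 22.7% of all gene names.

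Ccne1 was 3.95-fold higher in LT-HSC than in MPP (1.98, SE 0.24, limma adjusted p = 0.000271), and its second probe gave 1.41. Kif11 was lower by -0.65 (SE 0.15, adjusted p = 0.0201). Kif11 lost the call under 7 of 26 other settings, single scan days not counted. These were scaling to the 75th percentile (-0.54), where the median of all gene names was 0.30, the replicate block (-0.57), the random block for slide (-0.57), and the fits without either LT-HSC array (-0.59 and -0.71), MPP replicate 2 (-0.62) or MPP replicate 3 (-0.65). Among calls over all gene names in this comparison 62.4% were higher in LT-HSC, with 87.9% under the 75th percentile and 50.1% after normexp background correction. All 5 MEP markers and 2 of 5 mature neutrophil markers were also higher in LT-HSC than in MPP by the same test, and so were 2 of 5 B cell and 2 of 5 T cell markers and 1 of 5 of mature erythroid cells, while the T cell marker Lck was lower (-0.96). The 5 MEP markers had a mean log2 level of 10.92 to 11.90 in LT-HSC, 6.74 to 7.88 in MPP and 13.54 to 13.66 in MEP. For the 5 neutrophil markers it was 12.65 to 13.63 in LT-HSC and 9.93 to 11.99 in MPP. All 10 were well above background on both LT-HSC arrays, and their part in the Ccne1 difference was not tested.

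With scan day as a block, 6 replication and 7 mitosis genes differed between LT-HSC and MPP, against 15.8% of all gene names in that fit. Mcm3, Pcna, Pola1 and Pole were lower in LT-HSC, as were Kif11, Aurkb, Nusap1, Cenpf and Ndc80, while Cdc6, Ccne1, Ccnb1 and Mybl2 were higher. Within day 4, with 2 arrays on each side, 0 members were called, though 390 gene names were. There Ccne1 read 12.25 and 12.83 in LT-HSC against 10.65 and 10.62 in MPP, and the medians were -0.12 and -0.19.

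ST-HSC and MPP differed in 0 replication and 0 mitosis genes by limma, against 1.2% of all gene names higher in ST-HSC and 1.48% lower. At an unadjusted p under 0.05 there were 2 of 27 in each set, against 9.72% of all gene names. Of 27 differences, 22 were positive for replication genes and 18 for mitosis genes, with medians of 0.12 and 0.07 and -0.01 for all gene names. Leaving out single arrays, the mitosis median lay between 0.02 (without MPP replicate 3) and 0.18 (without MPP replicate 2) and moved by more than 1.5 times without any 1 of the ST-HSC arrays, and the replication median reached 0.20 without ST-HSC replicate 2. Ccne2 at 0.65, Mybl2 at 0.52 and Tyms at 0.41 had the largest positive values and Cdc25c at -0.43 the most negative, none past the test. With scan day as a block Mybl2 was higher in ST-HSC, as were 1.98% of all gene names. All 5 MEP markers were higher in ST-HSC than in MPP as well, with a mean log2 level of 9.46 to 10.03 in ST-HSC. Of the 5 GMP markers Fcgr3 alone was called, at 3.11, and the level of that list was 13.45 to 14.35 in ST-HSC against 10.64 to 12.32 in MPP. Blnk, of the B cell markers, was lower at -3.09 and Lck, of the T cell markers, at -1.97. The part of these lists was not tested.

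Several members had more than 1 probe, and probes of a gene could differ in size. For HSC subsets against myeloid populations, 6 of 10 other replication probes and 11 of 17 other mitosis probes were lower and 1 was higher. Over all gene names, at the probes used, 19.1% were lower and 21.7% higher, and a share over all probes was not taken. Many of these probes were dim. Of the 5 replication and 7 mitosis probes that were well above background on all 17 arrays, 4 and 3 were lower and 1 mitosis probe was higher. Mki67 differed by -0.48 at the probe used and by -1.71 at its other probe, both above background on all 17 arrays. Cenpe, with the smallest F value, differed by -0.13 at the probe used and by -2.55 and -2.15 at dimmer probes that were above background on 16 arrays each. Mcm3 gave -0.25 and -1.76, both above background on all arrays. Cenpf gave -0.18 and, at a probe above background on 14 arrays, -1.61. Other probes above background on all 17 arrays gave smaller differences than the probe used for Top2a, Cdc6 and Ccnb1. These were -0.66 against -1.44 for Top2a, not called, and -0.60 against -1.22 for Cdc6. For Ccnb1 they were -0.70 and -0.78 against -1.36. Bub1 went the other way, with 0.08 at the probe used and 1.52 at the second, which was also higher in LT-HSC than in MPP by 1.77. No gene had probes called in opposite directions.

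Members were alike to different degrees. The correlation of each gene with the mean of the other 26 of its set, over the 17 arrays, which share populations and scan days, had a median of 0.75 for replication genes and 0.69 for mitosis genes. Mcm10 at 0.96 and Cdc6 at 0.94 were nearest the replication mean, and Tpx2 at 0.96 and Ccnb1 at 0.94 the mitosis mean. Prim1 at -0.14, Pcna at -0.12 and Mcm4 at -0.08 were farthest, and 10 replication and 9 mitosis genes were closer to the mean of the other set.

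Other genes of both processes, outside the 54, were counted for context. For HSC subsets against myeloid populations, 17 of 35 other replication genes were lower and 1 was higher. Of 40 other mitosis genes, 28 were lower. Beside these stood 19.1% of all gene names lower and 21.7% higher. The largest differences were those of Cdc45l at -1.99 and Chaf1a at -1.63 for replication, and of Espl1 (separase) at -2.24, Dlg7 at -2.19 and Ncaph (a condensin subunit) at -2.18 for mitosis. CMP was lower than MEP in 12 of 35 and 10 of 40, against 7.73% of all gene names. It was higher in 1 of each, against 10.5%, and for mitosis this gene was Kif23 at 1.11. GMP was lower than MEP in 12 of 35 and 4 of 40, against 8.51% of all gene names, and the mitosis count was near that share. It was higher in 0 and 2, against 10.5%. LT-HSC was lower than MPP in 0 of 35 and 2 of 40, counts near the 3.17% of all gene names. The mitosis genes were Melk at -0.70 and Ckap2 at -0.67. Between CMP and GMP, and between ST-HSC and MPP, 0 of these genes were called, against 5.88% and 2.68% of all gene names.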

How the data were processed

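Single-color Agilent arrays of 17 mRNA samples were used. For every array the authors deposited scanner files, where Feature Extraction (9.5.3.1 for scan day 1, 10.2.1.3 for the others) had corrected the intensity of each spot for background and spatial trend, without normalization between arrays. They also deposited a table of quantile-normalized log2 values, used here only as an alternative. Array and feature flags, with scan times, were read from the same files.

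After a log2 transformation, intensities of all spots were quantile normalized with limma 3.58.1 (R 4.3.3), as the methods of the study state for normalization and test. The 1639 control spots and the spots flagged as outliers were then left out (161 probe values were missing), spots were averaged to 41174 probes, and the probe with the highest mean represented each gene name. A model with 1 mean per population was fitted by lmFit and eBayes to all 17 arrays, and p-values were adjusted by Benjamini-Hochberg over 28090 gene names and called at 0.05. The number of arrays limits the precision. Replicates were pools of mice, and no label says how the pools relate, so p-values measure the spread between these samples. The fit was tested on simulated data. Probe positions are those of mm9 in the scanner files, and promoter positions those of GRCm38.p6; both were kept apart.

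The members and lists were chosen with earlier results of these data known. Values by array were given for 11 well-known members (Mcm5, Cdc6, Pcna, Rrm2, Ccne1, Mki67, Top2a, Ccnb1, Plk1, Aurkb and Foxm1), for the 3 largest and 2 smallest F values of each set, and for the 3 largest called differences of each comparison and direction without overlap. Other members were named by their means, calls or differences.

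The alternatives were the authors' table, normexp (offset 50) in place of the scanner's background correction, scaling to the 75th percentile, a filter that kept 19639 genes well above background on 3 arrays, the mean of all probes, a block for replicate number, for scan day or (random) for slide, single scan days, and leaving out both LT-HSC arrays or each array in turn. Scan days 2 and 3 taken as 1 run, as a block or alone, were added after the data were seen.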

Additional observations from a re-analysis of the deposited data

How the results depend on the processing

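The direction of the median differences held under all alternatives run for HSC subsets against myeloid populations (-0.71 to -0.35 for replication and -0.94 to -0.41 for mitosis genes), CMP against MEP (-0.74 to -0.30 and -0.73 to -0.36), GMP against MEP (-0.63 to -0.36 and -0.47 to -0.20) and ST-HSC against MPP (0.10 to 0.20 and 0.02 to 0.18), and for mitosis genes in CMP against GMP (-0.23 to -0.12). For LT-HSC against MPP it turned to 0.014 for replication genes with the replicate block and to 0.016 for mitosis genes with slide as a random block. For CMP against GMP the replication median, 0.03, turned to -0.11 under scaling to the 75th percentile, to -2e-04 with the mean of all probes and to -0.02 without GMP replicate 1. The cause was not tested for any of the changes that follow. Counts are of replication and then mitosis genes. For LT-HSC against MPP (1 and 1), scaling to the 75th percentile left 0 mitosis genes, normexp and the authors' table gave 2 replication genes each, scan day as a block gave 6 and 7, 3 scanning runs as a block 6 and 10, slide 0 mitosis genes and day 4 alone 0 and 0. For ST-HSC against MPP (0 and 0), scan day gave 1 mitosis gene and 3 runs 1 and 1, against 4.55% and 4.78% of all gene names. For HSC subsets against myeloid populations (20 and 16), day 2 alone and days 2 and 3 together gave 0 and 0, with few arrays on each side. For CMP against GMP (1 and 0), the 75th percentile, the fit without LT-HSC and day 1 alone left 0 replication genes, and normexp gave 0 and 2. There 1 mitosis gene was called with the authors' table, 4 with scan day, 4 with 3 runs, 2 with slide and 2 on day 1 alone. Of all gene names these fits called 6.37%, 9.71%, 9.93%, 8.97% and 7.04%. For CMP against MEP (8 and 6), the 75th percentile gave 15 replication genes, where 18.2% of all gene names were called. For mitosis genes normexp gave 10, scan day 15, 3 runs 15, slide 13 and day 1 alone 11. Of all gene names these fits called 18.5%, 24.4%, 27.5%, 22.9% and 24.1%. For GMP against MEP (8 and 3), 3 runs gave 13 and 8, and scan day and slide gave 6 mitosis genes each. Day 1 alone also gave 6 mitosis genes, 5 lower and 1 higher. Of all gene names, 27.2% were called with 3 runs, 24.5% with scan day, 23.1% with slide and 24.6% on day 1 alone. The mitosis counts were near these shares. The share of all gene names called moved as well. For LT-HSC against MPP it was 8.44%, and 18.1% under the 75th percentile, 15.8% with scan day, 17.3% with 3 runs, 20.9% with the replicate block and 3.43% with slide. With scan day it went from 40.7% to 15% for HSC subsets against myeloid populations, from 2.68% to 4.55% for ST-HSC against MPP, from 5.88% to 9.71% for CMP against GMP, from 18.3% to 24.4% for CMP against MEP and from 19% to 24.5% for GMP against MEP.

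Replicate number as a block gave 5 and 2 for LT-HSC against MPP and 0 and 2 for CMP against GMP. For GMP against MEP it gave 5 mitosis genes, 4 lower and 1 higher. In these comparisons it called 20.9%, 8.37% and 24.2% of all gene names. No other count moved by more than 1.5 times. The labels do not say that a number pairs samples. Deviations of same-numbered arrays correlated at 0.13 to 0.53 within a scan day and at -0.07 to 0.02 across days.

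Without each array in turn, the F-test called 15 to 18 and 15 to 18 genes, LT-HSC against MPP 1 to 2 and 0 to 2, ST-HSC against MPP 0 to 0 in both, HSC subsets against myeloid populations 16 to 22 and 16 to 17, CMP against GMP 0 to 1 and 0 to 1, CMP against MEP 7 to 9 and 4 to 8, and GMP against MEP 5 to 8 and 2 to 3. The counts of 4 and of 5 were those without the unnumbered MEP array. Groups of 2 or 3 arrays, 4 scan days that part the populations and 1 dim LT-HSC array limit what could be detected.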
